A study of Mus musculus with 25 samples.

Results

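The 8 genes described here are the Jun family (Jun, Junb, Jund), the Fos family (Fos, Fosb, Fosl1, Fosl2) and Atf3, which were chosen by name out of 56956 genes counted in mouse sciatic nerve. RNA was sequenced in 25 libraries, each a pool of nerves from 4 to 5 untreated animals, males and females. The mice were 3, 5, 7, 9 or 12 weeks old, with 5 groups and a single library per group and age. C3 mice (B6.Cg-Tg(PMP22)C3Fbas/J, C57BL/6J) are heterozygous for 5 copies of a human PMP22 transgene, and WT-C3 mice are C57BL/6J without it. C22 mice (Tg(PMP22)C22Clh, FVB/NRJ) are heterozygous for 10 copies, and WT-C22 mice are FVB/NRJ without it. The fifth group, labelled C3-PMP22 c-JunP0Cre and called C3 c-JunP0Cre here, carries the C3 transgene and has lost c-Jun from Schwann cells through P0Cre. PMP22 is a protein of compact myelin whose duplication causes the neuropathy CMT1A, and both transgenic lines are models of that disease. The strain of the C3 c-JunP0Cre mice and the design of their deleted allele are not given in the sources used here, and no group with the deletion but without the transgene was analysed here. Strain and copy number change together between C3 and C22 and cannot be told apart. The libraries of a group at its 5 ages stood in for replicates (n = 5), so that each SD and standard error (SE) covers age as well as the difference between pools.

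AP-1 is a dimer of basic leucine zipper (bZIP) proteins. Jun proteins pair with each other or with Fos proteins, Fos proteins need a Jun partner, and the dimers bind short DNA sites that control growth, stress and injury genes. c-Jun, the product of Jun, is activated when JNK phosphorylates it. In Schwann cells c-Jun is low in mature nerve, is raised by injury and drives the repair cell state, in which growth factors and adhesion proteins are made and myelin genes are turned down. Atf3 is a bZIP factor of the ATF/CREB family that can pair with Jun proteins and is widely used as a marker of injured neurons, whose cell bodies lie outside the sciatic nerve.

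To show where these genes start, the 250 bases before the start of the canonical transcript were read from GRCm39 for Jun, Fos and Atf3, which rose in both models, and for Jund, whose window held the most motif matches. The start used for Atf3 lies inside the annotated gene, since longer transcripts begin further upstream. Capitals mark matches to TGANNTCA, the 8-base form of the site that AP-1 and ATF/CREB dimers bind, which includes the cyclic AMP response element TGACGTCA. The motif reads the same on both strands.
Jun, chr4:94940460-94940709, minus strand: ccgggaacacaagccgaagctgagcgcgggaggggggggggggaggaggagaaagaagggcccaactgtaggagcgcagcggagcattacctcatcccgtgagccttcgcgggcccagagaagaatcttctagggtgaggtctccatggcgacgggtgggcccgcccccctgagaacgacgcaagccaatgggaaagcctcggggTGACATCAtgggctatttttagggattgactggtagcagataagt
Jund, chr8:71151349-71151598, plus strand: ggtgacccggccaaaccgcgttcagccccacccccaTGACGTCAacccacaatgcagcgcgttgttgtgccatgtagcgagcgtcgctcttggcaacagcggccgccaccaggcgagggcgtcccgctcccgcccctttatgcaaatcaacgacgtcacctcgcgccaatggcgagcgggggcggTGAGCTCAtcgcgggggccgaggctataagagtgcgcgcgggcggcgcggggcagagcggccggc
Fos, chr12:85520408-85520657, plus strand: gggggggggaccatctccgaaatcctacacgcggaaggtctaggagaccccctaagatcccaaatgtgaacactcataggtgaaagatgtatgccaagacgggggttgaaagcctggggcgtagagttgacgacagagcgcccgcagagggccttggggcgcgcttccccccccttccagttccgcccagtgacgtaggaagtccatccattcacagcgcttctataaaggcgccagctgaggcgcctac
Atf3, chr1:190915538-190915787, minus strand: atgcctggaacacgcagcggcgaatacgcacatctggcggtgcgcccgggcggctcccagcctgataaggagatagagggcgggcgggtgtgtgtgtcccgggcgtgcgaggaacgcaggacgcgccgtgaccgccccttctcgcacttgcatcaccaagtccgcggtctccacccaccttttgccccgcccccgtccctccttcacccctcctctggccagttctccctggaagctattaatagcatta
The match in the Jun window is TGACATCA, from 45 to 38 bases before the start. The Jund window holds TGACGTCA from 214 to 207 bases and TGAGCTCA from 65 to 58 bases before the start. Of the 8 members, 2 had a match to TGANNTCA, against 11.2% of the same window in 21770 protein-coding genes. TGANTCA, the 7-base AP-1 site, was found in 0 of the 8 members and in 6.17% of all windows, and the CArG box bound by serum response factor in 0 of the 8 and in 1.4%. These are matches of letters in a window of 250 bases and say nothing of binding or of sites further from the start, which were not searched.

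The most counted human gene of the transgene locus (ENSG00000109099, 99.8% of the human counts in each transgenic group) was at 12500 ± 1850 CPM (counts scaled to a common library total) in C3, 11500 ± 3090 in C3 c-JunP0Cre and 12100 ± 1540 in C22 (SD, n = 5), against 3.09 ± 2.1 in WT-C3 and 0.824 ± 1.47 in WT-C22. Counts on genes ran from 2140142 to 49072746 per library (median 24663235), and the lowest, the C3 library of 9 weeks, is the least precise. Myelin genes were detected in every library, with the summed level of 14 markers of myelinating Schwann cells between 31500 and 131000 CPM. Markers of skeletal muscle, a tissue next to the nerve, varied from 7.39 to 11200 CPM between libraries and overlapped between all groups.

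Jun was highest in C22 and lowest in C3 c-JunP0Cre at every age, as the plot of CPM by age shows. In WT-C3 it was at 54.8, 50.1, 70.5, 52.4 and 59.1 CPM from 3 to 12 weeks. In C3 it was at 95.1, 118, 111, 116 and 105 CPM. In C3 c-JunP0Cre it was at 31.6, 29.8, 26.4, 27.4 and 31.7 CPM. Each C3 library was thus above, and each C3 c-JunP0Cre library below, all WT-C3 libraries. WT-C22 was at 50.3, 37, 66.2, 63.5 and 77.7 CPM. C22 was at 186, 168, 167, 146 and 138 CPM, above the libraries of every other group.

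**Figure D1:**
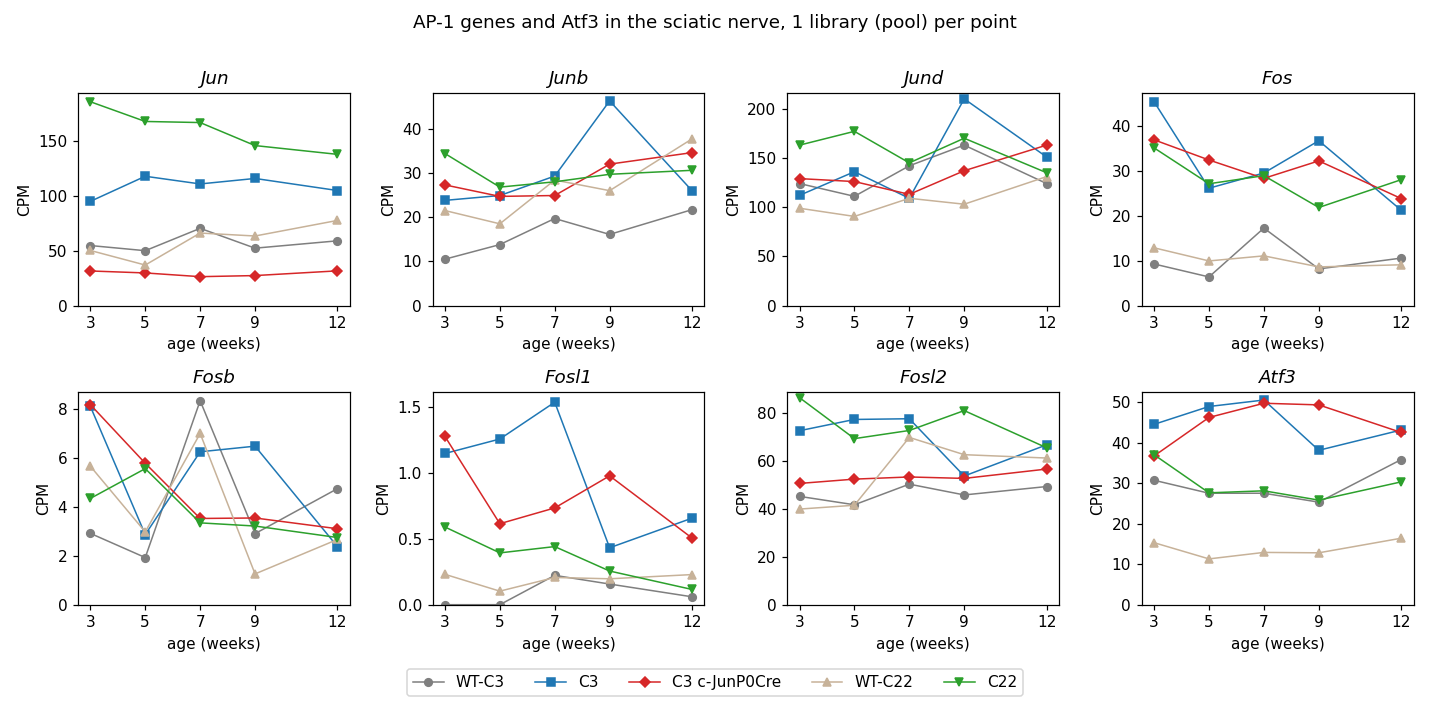
CPM (linear axis from 0) of the 8 genes against age in weeks, with 1 point per library and lines joining the ages of a group. Jun is highest in C22 and lowest in C3 c-JunP0Cre at every age, while Fos and Atf3 of C3 c-JunP0Cre overlap the C3 libraries.

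The knockout comparison asks what happened to the family when Schwann cells of the C3 model lost c-Jun. Jun RNA fell to 0.268 times its C3 level (log2 fold change -1.90, SE 0.09; Benjamini-Hochberg adjusted p = 7.29e-07, quasi-likelihood test of edgeR), and was the gene with the second smallest p of 13993 tested. It was lower at 5 of 5 ages, by a log2 ratio between -1.59 at 3 weeks and -2.08 at 9 weeks. Jun stayed past the threshold in all 17 alternative analyses (adjusted p 4.39e-81 to 2.16e-05). Against WT-C3 nerve, which has neither the transgene nor the deletion, Jun was also lower (log2 fold change -1.0, SE 0.10; adjusted p = 3.4e-05). In whole nerve, fewer cells of a type and less RNA per cell cannot be told apart, and the 29.4 ± 2.42 CPM of Jun (SD, n = 5) that remained cannot be assigned to a cell type. Jun has a single exon (GRCm39 chr4:94937271-94940459, minus strand, ENSMUSG00000052684), so reads from any part of it that the deletion leaves would be counted too. A long non-coding RNA, Junos, overlaps Jun on the other strand.

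In the fit with group as the only term, Jun alone of the 7 members tested was past the threshold between C3 c-JunP0Cre and C3. That is 1 lower and 0 higher. Fosl2 passed as well once age was a block. Over all genes 0.329% were called lower and 0.222% higher, so few genes of any kind passed. With age as a block 164 genes were higher and 109 lower in place of 31 and 46, which took the share of higher calls from 40.3% to 60.1%. Fos, the founding Fos protein, had a log2 fold change of -0.05 (SE 0.19). Atf3 was at -0.02 (SE 0.10) and Junb at -0.03 (SE 0.19). Their adjusted p were 0.996, 0.997 and 1. Jund and Fosb had values of -0.11 (SE 0.19) and -0.10 (SE 0.38). A p above the threshold does not show equal levels, and the SE of Fosb in particular leaves room for a sizeable change.

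Fosl2 lay next to the threshold in this comparison. It encodes Fra-2, a Fos protein without the strong activation domain of c-Fos. Its levels were 72.6, 77.3, 77.6, 53.7 and 66.7 CPM in C3 from 3 to 12 weeks. In C3 c-JunP0Cre they were 50.6, 52.4, 53.3, 52.7 and 56.6 CPM. Only the shallow C3 library of 9 weeks, with 124 counts of Fosl2, fell within the C3 c-JunP0Cre range. The log2 fold change was -0.41 (SE 0.08, adjusted p = 0.0547), and Fosl2 was lower at 5 of 5 ages. With age as a block, which the likeness of same-age libraries allows here, it was -0.40 with an adjusted p of 0.0432. Without the C3 library of 9 weeks it was -0.46 with an adjusted p of 0.00948. Over 17 alternatives the adjusted p ran from 0.000111 to 0.206, so that the call depends on the setting. Against WT-C3, Fosl2 of C3 c-JunP0Cre was at a log2 fold change of 0.16 (SE 0.07, adjusted p = 0.121), although no library of the pair of groups overlapped.

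The members that were higher in C3 than in WT-C3 and did not pass the test of the knockout can be seen side by side in the comparison of C3 c-JunP0Cre with WT-C3, which shares its libraries with the comparisons above. There 3 of 7 members were higher and 1, Jun, was lower, against 10.3% and 11.3% of all genes. Fos had a log2 fold change of 1.55 (SE 0.22, adjusted p = 0.000358), Junb of 0.78 (SE 0.18, adjusted p = 0.00836) and Atf3 of 0.57 (SE 0.11, adjusted p = 0.00294). For all of them no library of a group overlapped the other group, and all were higher at 5 of 5 ages. The same held for Fosl2, which was not called. How often groups did not overlap over all genes was not computed for any comparison.

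**Figure D2:**
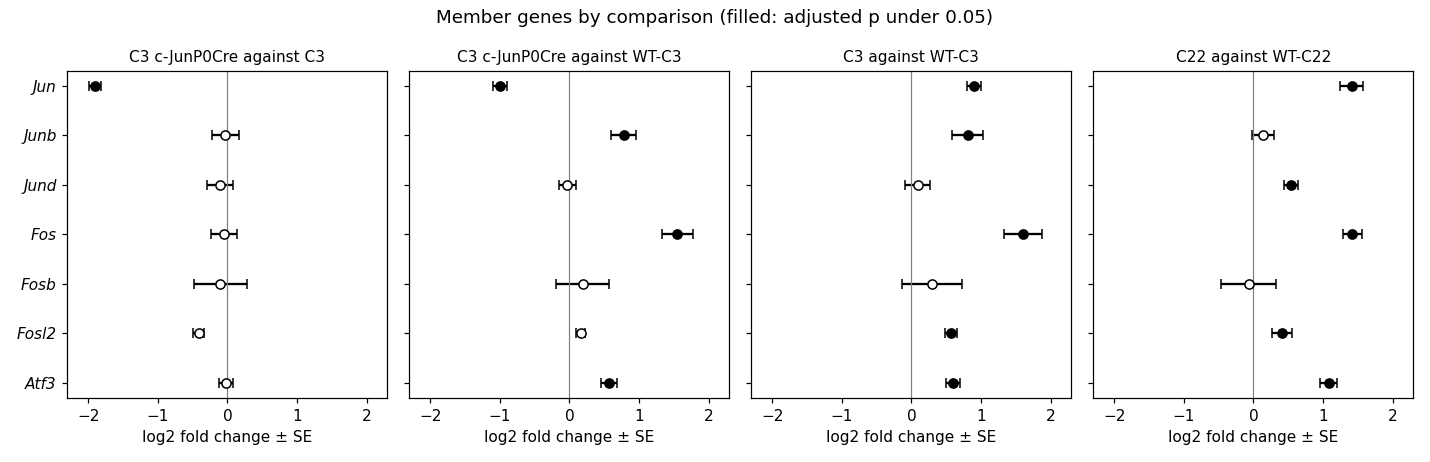
Log2 fold change with its SE (x axis) for the 7 tested members (y axis) in 4 comparisons, where filled points passed an adjusted p of 0.05. In C3 c-JunP0Cre against C3, fitted with no age term, only Jun (-1.90) is filled. Fos, Junb and Atf3 stay above 0 in C3 c-JunP0Cre against WT-C3.

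The next question was how the family responds to the transgene itself. In C3, 5 of 7 members rose and 0 fell against WT-C3, where 12.5% of all genes were called higher and 11.4% lower. Fos had the largest change (log2 fold change 1.60, SE 0.27; adjusted p = 0.00169), from 9.29, 6.4, 17.3, 8.19 and 10.6 CPM in WT-C3 to 45.5, 26.2, 29.6, 36.8 and 21.3 CPM in C3. The 7-week WT-C3 library was the highest of its group and still below every C3 library. Jun rose by 0.90 (SE 0.10, adjusted p = 0.000189), a fold of 1.87. Fosl2 rose by 0.57 (SE 0.09, adjusted p = 0.00124), from 45.2, 41.7, 50.3, 45.8 and 49.3 CPM in WT-C3. The C3 levels of Fosl2 given above did not overlap these.

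Atf3 went from 30.7, 27.5, 27.5, 25.3 and 35.8 CPM in WT-C3 to 44.5, 48.9, 50.5, 38.1 and 43.1 CPM in C3, with no overlap. The log2 fold change was 0.60 (SE 0.10, adjusted p = 0.00173). In C3 c-JunP0Cre, Atf3 was at 36.7, 46.2, 49.7, 49.3 and 42.5 CPM, overlapping the C3 libraries.

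Junb, a Jun protein that often restrains c-Jun, was at 10.5, 13.8, 19.7, 16.1 and 21.7 CPM in WT-C3. In C3 it was at 23.8, 24.9, 29.3, 46.3 and 26 CPM, the highest value coming from the shallow 9-week library with 107 counts. Its rise of 0.81 (SE 0.22, adjusted p = 0.0223) became 0.63 (adjusted p = 0.027) without that library. Leaving out the WT-C3 library of 5 or of 9 weeks took the adjusted p to 0.0517 or 0.0534 (range over 17 alternatives 0.0022 to 0.0534).

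Jund and Fosb did not pass in C3. Jund, the Jun gene with the steadiest expression in most tissues, had a log2 fold change of 0.09 (SE 0.18) and lay between 111 and 163 CPM in WT-C3 and between 109 and 210 CPM in C3. Fosb, a gene known for brief induction by stimuli, was at 1.93 to 8.35 CPM in WT-C3 and at 2.38 to 8.12 CPM in C3 (log2 fold change 0.29, SE 0.43).

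In C22, again 5 of 7 members rose and 0 fell against WT-C22, with 21.9% of all genes called higher and 20.5% lower. Scaling by library size only moved the median of all genes by 0.17 on the log2 scale and the share of higher calls among all calls from 51.7% to 76% here, and from 52.1% to 71.4% in C3, and left the calls of the members as they were. Jun rose by 1.41 (SE 0.16, adjusted p = 4.49e-05), a fold of 2.66. Fos rose by 1.42 (SE 0.14, adjusted p = 1.43e-05), from 12.9, 9.97, 11.1, 8.64 and 9.11 CPM to 35.2, 27.2, 29, 21.9 and 28.1 CPM. The ratio of Fos was nearly the same at each age, with log2 values between 1.34 and 1.62. Atf3 rose by 1.08 (SE 0.12, adjusted p = 3.06e-05), from 15.3, 11.3, 12.9, 12.8 and 16.4 CPM to 37, 27.6, 28.1, 25.8 and 30.3 CPM. None of these had overlapping groups.

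Jund was called in C22, with a log2 fold change of 0.54 (SE 0.10, adjusted p = 0.00147). It was at 98.9, 90.6, 109, 103 and 131 CPM in WT-C22 and at 163, 177, 145, 170 and 135 CPM in C22. The groups were apart, but at 12 weeks by a log2 ratio of only 0.04. Fosl2 passed narrowly (0.41, SE 0.15; adjusted p = 0.0472). Its levels were 39.9, 41.5, 69.8, 62.6 and 61.2 CPM in WT-C22 and 86.4, 69.3, 72.7, 81 and 65.5 CPM in C22, and the groups overlapped. The call was lost without the 3-, 5-, 7- or 9-week C22 library or the 3- or 5-week WT-C22 library, with adjusted p from 0.0614 to 0.109 (range over 17 alternatives 0.00548 to 0.109). Junb was at 18.5 to 37.7 CPM in WT-C22 and 26.8 to 34.4 CPM in C22 (log2 fold change 0.14, SE 0.16; adjusted p = 0.486). Fosb was at 1.26 to 7.01 and 2.75 to 5.57 CPM (-0.07, SE 0.39).

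Whether a member changed differently in C22 and C3 was tested as the difference of the 2 changes. Of the 7 members 0 passed in edgeR, while 4.75% of all genes had a more positive and 7.31% a more negative change in C22. With DESeq2 1 member passed, where 837 of all 13993 genes had a more positive and 1155 a more negative change. At an unadjusted p under 0.05 in edgeR there were 3 members, namely Atf3, Jun and Junb. Such p values were common among all genes, since Junb, the last of these, ranked 2799 by p. The difference was 0.45 for Atf3 (SE 0.15, adjusted p = 0.0605), 0.49 for Jun (SE 0.20, adjusted p = 0.125), 0.43 for Jund (SE 0.22, adjusted p = 0.251) and -0.68 for Junb (SE 0.29, adjusted p = 0.145). For Fos, Fosl2 and Fosb it was -0.20 (SE 0.32), -0.18 (SE 0.18) and -0.38 (SE 0.62). Atf3 was past the threshold in 8 of 27 alternatives (adjusted p 0.0232 to 0.125). Jund passed in 1 of 27, without the shallow C3 library of 9 weeks, in which it was highest among the C3 libraries (0.62, adjusted p = 0.0207), and Jun in 1, without the WT-C22 library of 12 weeks (0.60, adjusted p = 0.0409). A difference between the models for Jund, called in C22 and not in C3, was thus seen only when that library was left out, and one for Junb, called in C3 and not in C22, was not shown.

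The strains differed before any transgene was added. Between WT-C22 and WT-C3, 1 of 7 members was higher and 1 lower, with 9.99% of all genes higher and 11.7% lower. Atf3 was lower in WT-C22 at 5 of 5 ages (log2 fold change -1.12, SE 0.12; adjusted p = 3.5e-05), a fold of 0.461, and the groups did not overlap. The C22 libraries, at 25.8 to 37 CPM, therefore covered about the range of the WT-C3 libraries (25.3 to 35.8 CPM). Junb was higher in WT-C22 at 5 of 5 ages (0.67, SE 0.21; adjusted p = 0.0424), but the groups overlapped, and the call was lost in 7 of 17 alternatives (adjusted p 0.000979 to 0.0932). Jund was at -0.35 (SE 0.12, adjusted p = 0.0518) and was called in 4 of 17 alternatives (adjusted p 0.0159 to 0.117). Jun, Fos, Fosl2 and Fosb had log2 fold changes of 0.01 (SE 0.17), -0.02 (SE 0.23), 0.22 (SE 0.14) and -0.09 (SE 0.47). Markers of other cells also moved with strain, since 5 of 5 mast cell and 5 of 8 adipocyte markers were higher in WT-C22. The summed mast cell level was 66.5 to 267 CPM in WT-C22 and 31.8 to 80.8 CPM in WT-C3, and the adipocyte level 2170 to 6860 and 1760 to 3590 CPM. Their part in the values of Atf3 and Junb was not tested.

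Fosl1, which encodes Fra-1, was too low for the filter and had no test in the main analysis. It had 0, 0, 2, 2 and 1 counts in the WT-C3 libraries from 3 to 12 weeks, all within the 3 counts taken as the limit of detection. In C3 it had 38, 32, 76, 1 and 16 counts. In C3 c-JunP0Cre it had 24, 20, 20, 24 and 14 counts. Summed over libraries this is 163 counts in C3 against 5 in WT-C3, a ratio per total count of 16 (exact 95% interval 6.71 to 49.9). For C3 c-JunP0Cre the ratio to WT-C3 was 10.4 (4.33 to 32.8), and that to C3 was 0.652 (0.504 to 0.841). In FVB/NRJ nerve, C22 had 3 to 17 and WT-C22 1 to 9 counts, a ratio of 1.92 (1.16 to 3.22). These intervals cover counting error only, not the spread between pools. With no filter on low counts, edgeR gave an adjusted p of 0.0004 for C3 and 0.000659 for C3 c-JunP0Cre against WT-C3. It gave 0.7 for C3 c-JunP0Cre against C3 and 0.253 for C22 against WT-C22. The difference of the changes in C22 and C3 was -2.93 in edgeR (adjusted p = 0.0262 with no filter and 0.0163 with filterByExpr). It rests on the 5 counts of WT-C3. The filterByExpr setting kept Fosl1 there, but not in C3 or C22 against its own control. A smaller change in C22 is therefore not shown.

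Because exon length differs between genes, their levels were compared as CPM per kilobase of annotated exon. In WT-C3, Jund was highest at 79.7 ± 12.2, followed by Jun at 18 ± 2.52 and Atf3 at 12 ± 1.66 (SD, n = 5). Junb was at 6.87 ± 1.88, Fosl2 at 4.47 ± 0.33 and Fos at 4.39 ± 1.76. These last 3 lay within each other's spread or close to it. Fosb was at 0.668 ± 0.408 and Fosl1 at 0.0433 ± 0.0487. In C3 c-JunP0Cre the level of Jun, 9.22 ± 0.759, was below those of Jund (80 ± 11.1), Atf3 (18.4 ± 2.21), Fos (13.1 ± 2.09) and Junb (12.1 ± 1.85). In C22, Jun rose to 50.4 ± 6.05 beside 94.8 ± 10.5 for Jund. With the longest transcript in place of all exons the level of Fosl2 in WT-C3 was 6.66 and that of Junb 9.04.

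Expressed as shares of the Jun family on the same scale, Jun made up 17.3% ± 2.16 in WT-C3, 26.4% ± 4.28 in C3 and 9.18% ± 0.902 in C3 c-JunP0Cre (SD, n = 5). It made up 19.5% ± 2.38 in WT-C22 and 32% ± 2.53 in C22. Jund was the main Jun transcript in every group, from 60% ± 2.89 in C22 to 78.9% ± 0.701 in C3 c-JunP0Cre. The summed Jun family level was 105 ± 13.7 in WT-C3, 133 ± 29.5 in C3 and 101 ± 13.2 in C3 c-JunP0Cre, ranges that overlap. It was 93.5 ± 17 in WT-C22 (73.7 to 119) and 158 ± 14.1 in C22 (137 to 170), which did not overlap. Within the Fos family, Fos made up 44.7% ± 5.75 in WT-C3, 61.9% ± 7.19 in C3 and 67.2% ± 3.15 in C3 c-JunP0Cre. It made up 42.5% ± 7.57 in WT-C22 and 59.8% ± 4.36 in C22. The summed Fos family level was 9.57 ± 2.49 in WT-C3 and 21.5 ± 4.38 in C3, and 10.4 ± 1.4 in WT-C22 and 20 ± 2.52 in C22. In no group did Fosb or Fosl1 exceed a mean share of 6.54%.

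**Figure D3:**
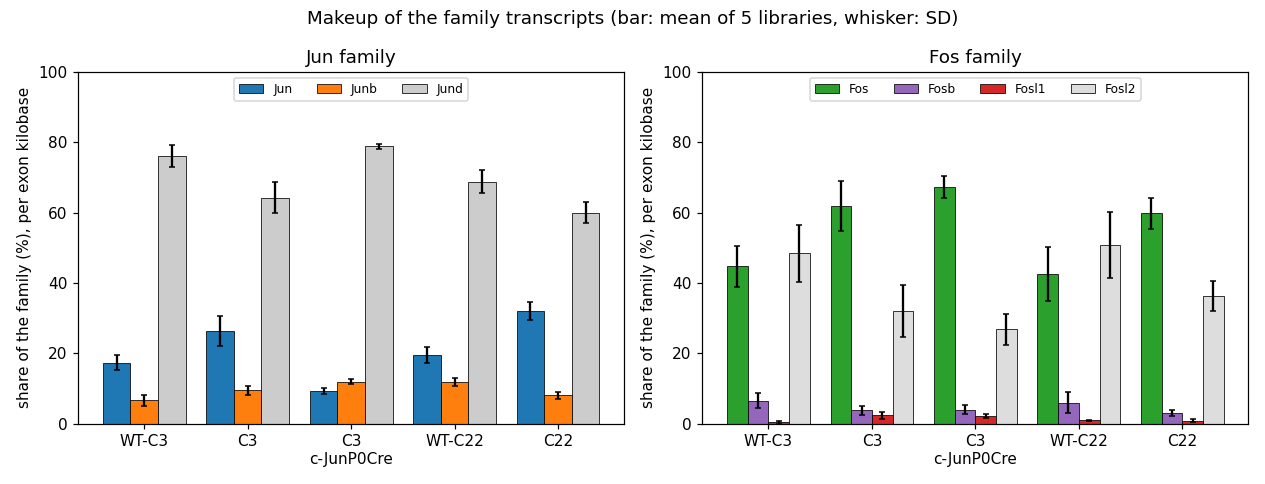
Mean share in percent of each gene in the Jun family (left) and Fos family (right), from CPM per exon kilobase, for the 5 groups, with SD over 5 libraries. The Jun bar is lowest in C3 c-JunP0Cre (9.18%) and highest in C22 (32%), and the Fos bar is above the Fosl2 bar in the 3 transgenic groups.

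Age was tested within each group with a natural spline. In edgeR 0 of 7 members passed in each of the 5 groups, where 0.693% of 15298 genes were called in WT-C3, 2.27% in C3, 3.38% in C3 c-JunP0Cre, 2.86% in WT-C22 and 0.752% in C22. At an unadjusted p under 0.05 there were 3 members in WT-C22, 1 each in WT-C3, C3 and C3 c-JunP0Cre, and 0 in C22. The shares of all genes above are for adjusted p of the spline. They are no measure for these counts or for the straight line below, for which no share of all genes is given. The lowest adjusted p among the members was 0.113, for Fosl2 in WT-C22. With a straight line in place of the spline, Jun of WT-C22 passed, at a slope of 0.084 log2 per week (SE 0.024, adjusted p = 0.0329). Without the 3-week or the 12-week library its adjusted p was 0.0762 or 0.312. In C22 the slope of Jun was -0.045 (SE 0.024, adjusted p = 0.377), and the log2 ratio of C22 to WT-C22 was 1.89 at 3 weeks, 2.19 at 5, 1.33 at 7, 1.2 at 9 and 0.82 at 12 weeks. The difference between these slopes was not tested.

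The genes of the injury programme that c-Jun is known to control in Schwann cells were followed as a list of 24, of which 18 could be tested. When C3 c-JunP0Cre was set against C3, 3 of the 18 fell and 0 rose in edgeR, with a median log2 fold change of -0.35 against 0.00 over all genes. That is 16.7% and 0% of the list against 0.329% and 0.222% of all genes. With age as a block 4 fell and 0 rose, where 109 of all 13993 genes fell and 164 rose. DESeq2 called 6 lower and 2 higher, and 11 of the 18 had an unadjusted p under 0.05 in edgeR. Gfap, an intermediate filament gene of non-myelinating and repair Schwann cells, fell by 1.35 on the log2 scale (SE 0.20, adjusted p = 0.00984). Ngfr, the low-affinity neurotrophin receptor, fell by 1.08 (SE 0.10, adjusted p = 0.000288), and Btc, the EGF family ligand betacellulin, fell by 0.95 (SE 0.16, adjusted p = 0.0226). The call of Btc was lost when any of 6 libraries was left out (adjusted p up to 0.0956), those of C3 c-JunP0Cre at 5, 7, 9 and 12 weeks and of C3 at 5 and 7 weeks. Sox2 (-0.33, adjusted p = 0.196) and Runx2 (-0.58, adjusted p = 0.289), transcription factors of immature and repair cells, did not pass, nor did the growth factor gene Shh (-1.18, adjusted p = 0.126). All 6 of these genes rose in C3 against WT-C3, and 10 of the 18 rose and 2 fell there (median 0.78), which is 55.6% and 11.1% of the list against 12.5% and 11.4% of all genes. Btc had the largest rise (log2 fold change 3.16, SE 0.25; adjusted p = 2.58e-05), then Shh (2.48, adjusted p = 0.0048), Runx2 (2.34, adjusted p = 0.000234) and Gfap (2.26, adjusted p = 0.000101).

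In C22 the injury list went both ways, with 8 higher and 7 lower (median 0.15), which is 44.4% and 38.9% against 21.9% and 20.5% of all genes. Pou3f1, a transcription factor of promyelinating Schwann cells, rose by 3.64 (SE 0.17, adjusted p = 5.75e-08). Tgfa, an EGF receptor ligand, fell by 2.62 (SE 0.16, adjusted p = 2.71e-07), and Lif, a cytokine, fell by 2.49 (SE 0.21, adjusted p = 4.66e-06). Of the genes followed above in the knockout comparison, Btc (2.17, adjusted p = 3.6e-05), Runx2 (1.61, adjusted p = 1.6e-05), Sox2 (1.54, adjusted p = 1.04e-05) and Ngfr (1.12, adjusted p = 0.000208) rose in C22. Gfap fell by 0.60 (SE 0.19, adjusted p = 0.0226), and Shh was lower too. Shh had 0 counts in all 5 C22 libraries against 11 to 144 counts in the WT-C22 libraries, at least 75.3-fold lower when 3 counts over the group are taken as the floor. In C3 and C3 c-JunP0Cre it had 53 to 1004 and 156 to 256 counts. The difference between the models passed for 8 of the 18 genes, with 1 change more positive and 7 more negative in C22. That is 5.56% and 38.9% against 4.75% and 7.31% of all genes. Among them were Gfap (-2.88, SE 0.31; adjusted p = 3.22e-06), Tgfa (-2.01, adjusted p = 3.48e-07), Lif (-2.17, adjusted p = 6.53e-06) and Pou3f1 (1.51, adjusted p = 0.000525). Gfap was already higher in WT-C22 than in WT-C3 (1.57, SE 0.20; adjusted p = 0.000156).

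The kinases, scaffolds and phosphatases of the JNK route, which acts on c-Jun protein, were a list of 21 with 19 tested. In C3, 7 rose and 0 fell (median 0.21), which is 36.8% and 0% against 12.5% and 11.4% of all genes. In C22, 9 rose and 3 fell (median 0.21), which is 47.4% and 15.8% against 21.9% and 20.5%. Dusp16, a phosphatase that inactivates JNK, rose by 0.87 in C3 (SE 0.11, adjusted p = 0.000368) and by 1.81 in C22 (SE 0.08, adjusted p = 2.9e-08), and the difference passed (0.92, SE 0.14; adjusted p = 0.000105). Dusp10, another JNK phosphatase gene, rose by 0.86 in C3 and 1.03 in C22, and Dusp8 by 0.62 and 1.04 (adjusted p 5.21e-05 to 0.0408). Map3k1, an upstream kinase, rose by 0.28 (adjusted p = 0.034) and 1.03 (adjusted p = 3.47e-06). Map3k11 (MLK3), of the same tier, rose by 0.64 in C3 (adjusted p = 0.00107). Between C3 c-JunP0Cre and C3, 0 of the 19 passed in edgeR or DESeq2 (median -0.03), and 0 had an unadjusted p under 0.05. That is near the share of all genes called there in edgeR, 0.329% lower and 0.222% higher. With library size only, 9 rose in C3 and 12 rose and 1 fell in C22, and the call of Map3k1 and of Dusp10 in C3 was lost in 7 of 17 alternatives each.

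Other immediate early genes, which like Fos respond quickly to stimuli, were 24 tested of 28 listed. In C3, 6 rose and 1 fell (median 0.15), which is 25% and 4.17% against 12.5% and 11.4% of all genes. Egr3 rose by 1.85 (SE 0.28, adjusted p = 0.000916), Nr4a3 by 1.76 (SE 0.27, adjusted p = 0.00108) and Myc by 0.61 (adjusted p = 0.0388), while Ccn1, a matricellular protein gene, fell by 0.70 (adjusted p = 0.0265). In C22, 6 rose and 5 fell (median -0.10), which is 25% and 20.8% and so near the 21.9% and 20.5% of all genes. Egr3 was at 2.23 (SE 0.26, adjusted p = 4.19e-05), Ier5 at 1.38 (SE 0.10, adjusted p = 9.74e-07), Csrnp1 at -0.79 (adjusted p = 0.0138) and Ccn1 at -1.48 (SE 0.19, adjusted p = 8.59e-05). Between C3 c-JunP0Cre and C3, 0 of the 24 were past the threshold in edgeR and DESeq2 (median -0.06), and 0 had an unadjusted p under 0.05. Of all genes 0.329% were called lower and 0.222% higher there in edgeR, so that 0 is near the share of all genes. With library size only, 10 rose and 4 fell in C22, and the call in C3 was lost in 9 of 17 alternatives for Myc and in 4 for Ccn1.

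Further bZIP genes, the possible partners and relatives of the 8 members, were 29 tested of 32. In C3, 5 rose and 0 fell (median 0.02), which is 17.2% and 0% against 12.5% and 11.4% of all genes. The largest were Nfil3 (0.88, adjusted p = 0.0491), Bach2 (0.82, adjusted p = 0.00229), Bach1 (0.43, adjusted p = 0.0049) and Atf6b (0.40, adjusted p = 0.0287). In C22, 9 rose and 5 fell (median 0.05), which is 31% and 17.2% against 21.9% and 20.5%, while 15 rose and 0 fell with library size only. The largest rises were those of Batf3 (1.74, SE 0.27; adjusted p = 0.00038), a partner of Jun proteins in immune cells, Bach2 (1.00, adjusted p = 3.07e-05), Ddit3 (0.91, adjusted p = 0.000102), which encodes the stress factor CHOP, and Nfil3 (0.72, adjusted p = 0.0404). The call of Nfil3 was lost in 8 of 17 alternatives in each model and that of Atf6b in C3 in 6. Between C3 c-JunP0Cre and C3, 0 of the 29 passed in edgeR or DESeq2 (median 0.00), and 4 had an unadjusted p under 0.05. The edgeR count is near the share of all genes called there, 0.329% lower and 0.222% higher. Of 10 genes known to be induced with Atf3 in injured neurons, 4 were high enough to test. Between C3 c-JunP0Cre and C3, 0 of them passed in edgeR or DESeq2, again near the share of all genes, and 1 had an unadjusted p under 0.05. In C3, 1 of the 4 rose and 0 fell, against 12.5% and 11.4% of all genes. In C22, 1 rose and 1 fell, which is 25% each way and near the 21.9% and 20.5% of all genes. Flrt3 was the gene that rose in C3 (0.87, adjusted p = 0.000414) and in C22 (0.65, adjusted p = 0.00115), and Atf5, which is also among the bZIP genes above, fell in C22 (-0.33, SE 0.10; adjusted p = 0.0165).

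**Figure D4:**
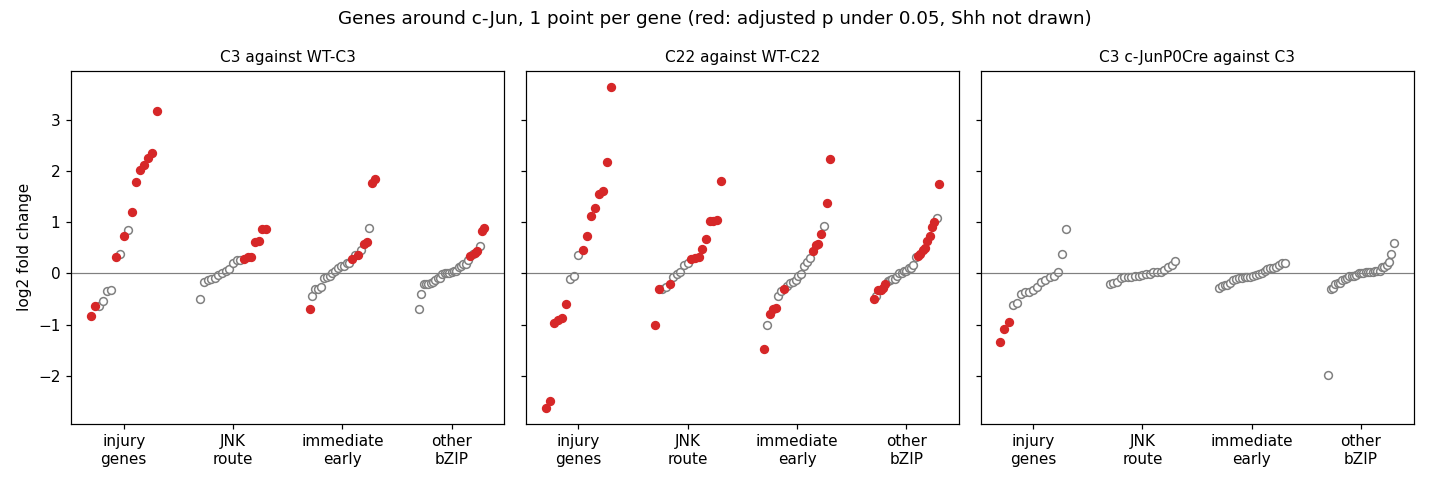
Log2 fold change (y axis) of each tested gene of 4 lists (x axis) in 3 comparisons, where red points passed an adjusted p of 0.05 and Shh is left out for its 0 counts in C22. In C3 c-JunP0Cre against C3 only 3 injury genes are red, while red points appear in all 4 lists in C3 and C22.

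Markers of other cells were read beside these changes. Between C3 c-JunP0Cre and C3, 0 of 77 tested marker genes in 9 lists passed in edgeR and 1 in DESeq2, and 7 had an unadjusted p under 0.05. Of all genes only 0.329% were called lower and 0.222% higher there in edgeR. With age as a block 6 of 8 adipocyte markers and 1 of 5 perineurial markers were higher in C3 c-JunP0Cre. The summed adipocyte level was 558 to 3750 CPM in C3 and 978 to 5210 in C3 c-JunP0Cre, and its part in the fall of Jun and the values of Fosl2 was not tested. In C3 against WT-C3, 4 of 5 perineurial and 3 of 10 endothelial and pericyte markers fell, 1 of 12 macrophage markers rose, and 4 of 14 myelinating markers rose while 3 fell. Of all genes 12.5% were called higher there and 11.4% lower, and the 8.33% of macrophage markers that rose was below that. In C22 against WT-C22, 5 of 5 perineurial and 8 of 10 endothelial and pericyte markers fell, 2 of 12 macrophage markers rose and 1 fell, and 3 of 14 myelinating markers rose while 6 fell. Of all genes 21.9% were called higher there and 20.5% lower. The rises of macrophage (16.7%) and myelinating markers (21.4%) and the falls of macrophage markers (8.33%) did not exceed those shares. The summed myelinating level was 76900 to 130000 CPM in WT-C3, 50000 to 73600 in C3, 45800 to 83600 in C3 c-JunP0Cre, 63300 to 131000 in WT-C22 and 31500 to 46500 in C22. The perineurial level was 1230 to 1900 CPM in WT-C3 and 1190 to 1540 in C3, and 1280 to 2060 in WT-C22 and 927 to 1180 in C22. The endothelial and pericyte level was 918 to 1040 CPM in WT-C3 and 694 to 955 in C3, and 941 to 1220 in WT-C22 and 639 to 912 in C22. Of the 6 listed blood markers, 4 of them tested, 1 was at 0 counts throughout WT-C22 and throughout C22, and no marker of the other lists was at 0 throughout a group. In C3 c-JunP0Cre against WT-C3, 3 of the 77 markers were higher and 7 lower, against 10.3% and 11.3% of all genes. Neither count exceeded the share of all genes. The lower ones included 3 of 4 blood markers, Hbb-bs (-2.06, adjusted p = 0.0378), Hbb-bt (-2.29, adjusted p = 0.0292) and Alas2 (-2.12, adjusted p = 0.0471). The summed blood level was 48.2 to 176 CPM in C3 c-JunP0Cre and 114 to 1560 CPM in WT-C3. The part of cell makeup in the changes of Jun, Fos, Fosl2, Junb, Jund and Atf3 was not tested.

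Finally, the genes whose levels followed each member most closely were listed over the 25 libraries, by Pearson r of log2 CPM, as a description. The libraries share strain and transgene, so that any gene that differs between the groups in the same way ranks high. Jun was closest to Chd5 (0.865), Wwp2 (0.823) and Erdr1y (0.821). Fos was closest to Arid3b (0.939) and to a pair of human genes of the transgene locus, ENSG00000286792 (0.938) and ENSG00000125409 (0.926). For Atf3 they were Eme2 (0.940), Clvs1 (0.938) and Fancc (0.937). Fosl2 was nearest to Stac2 (0.879), Anxa1 (0.840) and Polrmt (0.833). For Junb they were Dctn1 (0.910), Tut1 (0.875) and Vps11 (0.873), and for Jund Mrps26 (0.857), Lsm1 (0.840) and Pop5 (0.840). Fosb had the loosest neighbours, Egr1 (0.681), itself an immediate early gene, Btbd10 (0.648) and Ccdc25 (0.619). Among the members, the closest pairs were Fos with Fosl1 (0.81), Jun with Fosl2 (0.72) and Fos with Atf3 (0.69), and Jun with Atf3 was at 0.01.

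The remaining members lie at these places on GRCm39. Junb is at chr8:85701113-85705359, minus strand, overlapping Prdx2 on the other strand, and Jund at chr8:71151599-71153265, plus strand, with 1 exon and overlapping Gm11175. Fos is at chr12:85520658-85524047, plus strand, and Fosb at chr7:19036621-19043976, minus strand, with no overlapping gene. Fosl1 is at chr19:5497575-5505974, plus strand, overlapping Ccdc85b, Fosl2 at chr5:32292707-32315186, plus strand, overlapping Gm72529, and Atf3 at chr1:190902493-190950241, minus strand, overlapping Gm55866. The strand setting of the counting is not given in the sources used here, so that reads of overlapping genes on opposite strands may not have been told apart.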

How the data were processed

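RNA of sciatic nerve was measured in 25 libraries (5 groups, 5 ages), made from poly(A) RNA with a directional kit. Per the methods of the study, the authors trimmed reads (cutadapt 2.10, FastQC 0.11.9), aligned them to GRCm39 with the human transgene locus added (STAR 2.7.5a), removed duplicates by molecular identifier (UMI-tools 1.1.1), counted with HTSeq 0.12.4 on Ensembl 110 genes and deposited raw counts. Symbols and positions came from GENCODE M39 for 56323 of 56941 mouse genes (15 further genes are human). Summary lines that name no gene (no gene 8.12% to 12.11%, ambiguous 1.78% to 2.04%, not unique 2.76% to 3.93%) were left out. Depth on genes was 2140142 to 49072746 counts, and 3 counts were the limit of detection.

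Counts were tested in R 4.3.3 with edgeR 4.0.16 (quasi-likelihood test, TMM among the libraries compared, group as the only term). A gene entered the test when its log2 CPM exceeded 1 in 7 libraries or more (25%), which held for 13993. P values were adjusted over all of them by Benjamini-Hochberg, with a threshold of 0.05. Age used a natural spline with 3 degrees of freedom in all libraries and filterByExpr (15298 genes). Levels are TMM-scaled CPM, divided by exon kilobases between genes. Nearest genes used a prior count of 2. Nothing in the sources says that a group was sampled from a second pool, so p values measure the spread over ages and pools. As alternatives, size factors by the median ratio or by library size only, DESeq2 1.42.0, no filter or filterByExpr, a joint fit of all libraries, a block for age and the removal of each library were tried; for age also 2 degrees of freedom, a straight line, the log2 CPM filter and a fit of a group with its partner; and for levels the longest transcript. The steps were tested on simulated data.

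The labels give no replicate numbers beyond age. Libraries of the same age deviated together at every age in C3 c-JunP0Cre against C3 (correlations across genes of 0.436, 0.123, 0.348, 0.262 and 0.614 from 3 to 12 weeks). The fit with age as a block was therefore read beside the main fit, which has no age term. That blocked fit called 273 genes in place of 77. The members and lists were chosen with earlier results of these data known. The genes named are the members, the called genes of each list (up to the 4 largest), the 3 nearest patterns per member and the main human gene. Other list genes are named beyond this, with values seen, where the same gene was followed across comparisons. GRCm39 sequence windows are 250 bases before the canonical transcript start.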

Additional observations from a re-analysis of the deposited data

Results flagged for a closer look

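Within each group the highest and lowest of the 5 libraries were examined for each member, which made 40 sets, and 2 libraries lay apart by Dixon's criterion at the 95% level. Chance flags about 1 in 20 such sets. Junb in C3 at 9 weeks was at 46.3 CPM while the other C3 libraries lay between 23.8 and 29.3, and it rests on 107 counts in the shallowest library of the series. Fosl1 in WT-C22 at 5 weeks was at 0.103 CPM, a single count, while the other libraries lay between 0.197 and 0.231.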

How the results depend on the processing

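No result reversed its direction while called. Between C3 c-JunP0Cre and C3, 1 member and 77 genes were called. DESeq2 called 2 members and 250 genes, the fit with age as a replicate block 2 and 273, the fit without a filter 134 genes and that of all 25 libraries 139. Leaving out single libraries gave 1 to 2 members and 43 to 98 genes. The lowest was without the C3 library of 5 weeks (43), then 45 without that of 7 weeks or the C3 c-JunP0Cre library of 7 weeks, and 47 and 50 without the C3 c-JunP0Cre libraries of 5 and 9 weeks. The member that joined Jun was Fosl2. For the difference between the models, 1 member was called with library size only, DESeq2, all libraries in 1 fit or the age block, Atf3 in each case, and 0 to 2 when a library was left out (2 without the WT-C22 library of 12 weeks, Atf3 and Jun; 1, Jund, without the C3 library of 9 weeks). Between the controls, library size only left 1 member, and leaving out libraries 1 to 2. The straight line called 1 member in WT-C22. The cause of these changes was not tested. Over single members, 820 alternatives left the call as it was, 17 added and 17 removed a call. In C3 against WT-C3 the correlation of same-age libraries was -0.227 at 5 weeks, and in C22 against WT-C22 -0.151 at 12 weeks. Between the controls it was above 0 at every age (0.047 to 0.655), as in C3 c-JunP0Cre against WT-C3 (0.016 to 0.347). The age block added Atf3 to the difference between the models and Jund between the controls. Among the limits of precision are the low counts of Fosl1, the shallow C3 library of 9 weeks and a single pool per group and age.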
